A study of Mus musculus with 4 samples.

Results

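Lysyl oxidases and lysyl hydroxylases are the enzymes that prepare and cross-link the lysines of collagen and elastin. Bulk RNA of mouse spermatogonial cultures held mRNA of all 8 family genes examined here. Which cells of the cultures it came from was not tested. The 8 genes are the 5 lysyl oxidases Lox, Loxl1, Loxl2, Loxl3 and Loxl4 and the 3 lysyl hydroxylases Plod1, Plod2 and Plod3, out of 32285 genes in the count table. They were chosen by gene name, with their CPM in the libraries of both strains already known, so their strain values are given as a description with no test. The cells are GS cells, cultured spermatogonia established from testes of mice aged 10 days, all wild-type. Of 4 libraries, 2 came from strain C57BL/6 (B6) and 2 from strain 129. Neither a treatment, the culture medium, any supporting cells, nor the number of animals or cultures behind a strain is stated by any source used here. Separate animals or cultures are not stated for the replicates either, so any spread or p-value here covers these libraries only, and may be technical.

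Collagen chains are modified before they leave the cell. Lysyl hydroxylases, which need iron, ascorbate and 2-oxoglutarate, add hydroxyl groups to lysines of procollagen in the endoplasmic reticulum. Lysyl oxidases are secreted copper enzymes that oxidise lysines and hydroxylysines outside the cell, after which neighbouring chains form covalent cross-links. In the testis, collagen and basement membrane surround the seminiferous tubules that hold the spermatogonia, and fibroblasts and peritubular cells are known sources of such matrix.

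The lysyl oxidases share a copper-binding stretch, shown here because it marks the family and shows how far apart the members are as sequences. All 5 lysyl oxidases encoded it and none of the 3 lysyl hydroxylases did. It is 33 bases long in GENCODE M21 transcripts (GRCm38), is coding sequence, and is interrupted by an intron in each gene shown. The positions are chr9:58293720-58294381 on the minus strand for Loxl1, chr14:69682316-69689037 on the plus strand for Loxl2, chr6:83049995-83050125 on the plus strand for Loxl3 and chr19:42598807-42599899 on the minus strand for Loxl4, introns included. Capitals mark the 4 histidine codons.
Loxl1: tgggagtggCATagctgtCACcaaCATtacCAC
Loxl2: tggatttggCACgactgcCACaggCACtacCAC
Loxl3: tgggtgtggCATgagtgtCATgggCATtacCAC
Loxl4: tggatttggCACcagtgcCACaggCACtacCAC

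Loxl2 and Loxl4 were the most alike in this stretch, among the 4 shown, with 31 of 33 bases identical, and Loxl1 and Loxl4 the least, with 21. Over whole transcripts the longest identical run between any pair of lysyl oxidases was 11 to 32 bases, and between lysyl hydroxylases 15 to 24 bases. A read of 76 bases therefore could not match a pair of family members exactly along its whole length.

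Gene expression is given in CPM, the reads of a gene scaled to a common library size after TMM factors, which correct for differences in library makeup. Library totals ran from 20375086 to 25374801 counts. Log2 fold changes compare 129 with B6 (positive: higher in 129), and their standard errors (SE) come from one edgeR fit over 16005 genes with enough counts, where the median log2 fold change was 0.015. All 8 family members passed the filter on low counts. The label of the cells was checked with 12 spermatogonial markers, whose summed level was 2773 to 3878 CPM in the 4 libraries. Dazl, a germ cell RNA-binding protein gene, was at 1031 ± 29.8 CPM in the B6 libraries and 733 ± 139 CPM in the 129 libraries (SD, n = 2), and Uchl1, a ubiquitin hydrolase gene of spermatogonia, at 790.1 ± 48.9 and 344 ± 57.9 CPM. Of the 12 markers 1 fell in 129 (Uchl1) and 1 rose (Etv5, 69.8 ± 15.0 against 218 ± 22.2 CPM, edgeR adjusted p = 0.032). The other 10 did not pass, where 2.86% of all genes tested passed. Both libraries of one strain were above both of the other for 9 of the 12, against 60.1% of all genes tested. Among the 9, B6 was higher for 7 and 129 for 2. In bulk RNA such as this, fewer cells of a type and less RNA per cell cannot be told apart.

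Loxl2, an oxidase known to act on basement membrane collagen, set the strains apart by the widest margin of the 8 genes. It stood at 229 and 73.5 CPM in the B6 libraries and at 1.64 and 1.52 CPM in the 129 libraries. Both B6 libraries were high, with replicate 1 at 3.11 times replicate 2, and both 129 libraries were near the floor with 34 and 32 reads. The mean was 151 ± 110 CPM in B6 and 1.58 ± 0.0885 CPM in 129 (SD, n = 2), which is 95.7-fold higher in B6 (log2 fold change -6.58, SE 0.68). The lower B6 library was still 44.8 times the higher 129 library. Without B6 replicate 1 the log2 fold change was -5.54. Loxl2 lies on chromosome 14 from 69609068 to 69695834 on the plus strand. The antisense gene Gm27177, which overlaps it, had no count in any library.

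Loxl1, an oxidase linked to elastic fibre upkeep, was higher in both 129 libraries. Its values were 24.1 and 21.8 CPM in B6 and 161 and 47.5 CPM in 129. The B6 libraries lay close together, and 129 replicate 1 was 3.39 times 129 replicate 2. The means were 22.97 ± 1.61 and 104 ± 80.4 CPM (SD, n = 2), 4.54-fold higher in 129 (log2 fold change 2.18, SE 0.55), and without 129 replicate 1 the log2 fold change was 1.05. Loxl1 lies on chromosome 9 from 58287738 to 58313186 on the minus strand, and no annotated gene overlaps it.

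Loxl4, an oxidase with scavenger receptor domains like Loxl2, was the least abundant family member in B6. It was at 3.29 and 2.03 CPM in the B6 libraries and at 25.4 and 6.54 CPM in the 129 libraries. The strains did not overlap, although the 129 libraries differed 3.88-fold. The means of 2.66 ± 0.894 and 15.98 ± 13.3 CPM (SD, n = 2) were 6.00 times apart, with 129 higher (log2 fold change 2.56, SE 0.73). Without 129 replicate 1 the log2 fold change was 1.28. Loxl4 lies on chromosome 19 from 42593982 to 42612813 on the minus strand.

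Loxl3, another oxidase with scavenger receptor domains, overlapped between the strains. It was at 12.7 and 20.2 CPM in the B6 libraries and at 49.998 and 16.4 CPM in the 129 libraries, so that only 129 replicate 1 stood above both B6 libraries. The log2 fold change of 1.02 (SE 0.55) became 0.0034 without that library. Htra2, a mitochondrial protease gene on the opposite strand, overlaps Loxl3, and its values were 11.5 and 16.1 CPM in B6 and 42.2 and 27.6 CPM in 129. No source used here says whether the counting used strand, and the part of Htra2 reads in the Loxl3 values was not tested. Loxl3 lies on chromosome 6 from 83034173 to 83052562 on the plus strand.

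Lox, the founding member, which is cleaved to its active form outside the cell, was the most abundant of the 5 oxidases but showed no steady strain difference. Its 4 values were 469 and 217 CPM in B6 and 515 and 119.96 CPM in 129. Replicate 1 was the higher library in both strains, by 2.16-fold in B6 and 4.296-fold in 129, and the strains overlapped. The log2 fold change was -0.11 (SE 0.66). It changed sign, to 0.54, without B6 replicate 1 and to 0.59 without 129 replicate 2, and it was -1.51 without 129 replicate 1. Lox lies on chromosome 18 from 52516067 to 52529867 on the minus strand, and an annotated antisense gene that overlaps it was not analysed here.

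**Figure D1:**
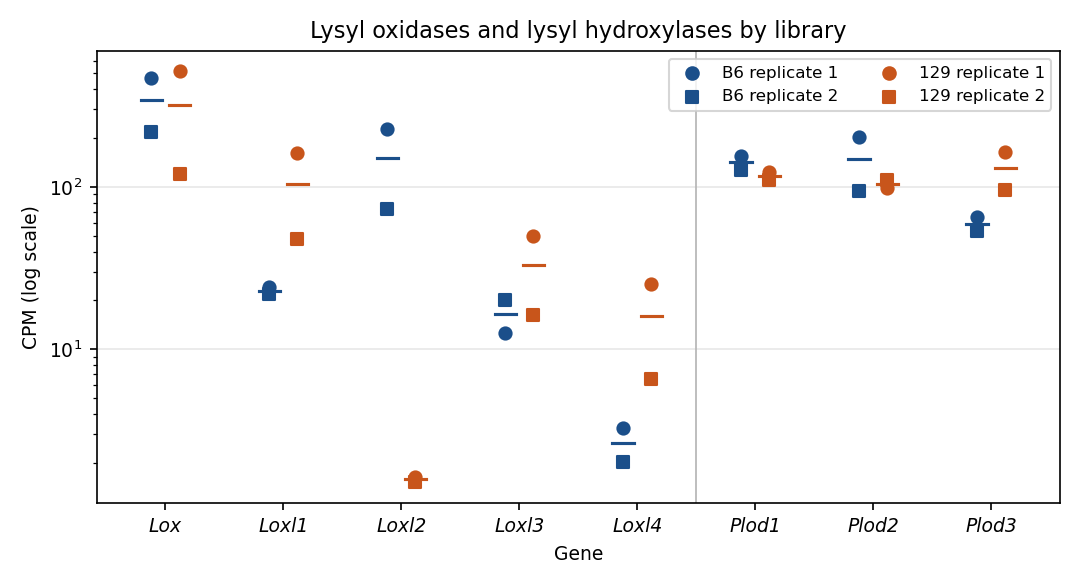
CPM on a log axis for the 5 lysyl oxidases (left of the grey line) and the 3 lysyl hydroxylases (right), with 1 point per library and a short bar at the mean of the 2 libraries of a strain. Loxl2 is the gene with B6 far above 129 (151 against 1.58 CPM), while Loxl1, Loxl4 and Plod3 have both 129 libraries above both B6 libraries.

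Among the lysyl hydroxylases, Plod3 differed the most. Plod3, which also carries glycosyltransferase activity on hydroxylysine, was at 65.1 and 53.8 CPM in the B6 libraries and at 164 and 96.4 CPM in the 129 libraries. Both 129 libraries were above both B6 libraries, and the means were 59.4 ± 8.03 and 129.98 ± 47.5 CPM (SD, n = 2), a 2.19-fold difference (log2 fold change 1.13, SE 0.29). Without 129 replicate 1 the log2 fold change was 0.70. Znhit1, which overlaps Plod3 on the opposite strand, was at 21.1 ± 0.248 CPM in B6, against 26.5 ± 4.85 CPM for the 129 pair (log2 fold change 0.33, SE 0.30). Plod3 lies on chromosome 5 from 136987019 to 136996648 on the plus strand.

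Plod2, the hydroxylase of the collagen telopeptides, was high in a single library. It was at 203 CPM in B6 replicate 1 against 94.8 CPM in B6 replicate 2 and 98.6 and 111 CPM in 129, so the strains overlapped. Its log2 fold change of -0.50 (SE 0.35) became 0.14 without B6 replicate 1 and -0.99 without B6 replicate 2. Plod1, the hydroxylase of helical lysines, varied least, with 156 and 128 CPM in B6 and 124 and 109.7 CPM in 129. The strains of Plod1 did not overlap, but the lower B6 library was only 1.03 times the higher 129 library (log2 fold change -0.28, SE 0.20). Leaving out 1 library in turn gave values from -0.46 (without B6 replicate 2) to -0.14 (without B6 replicate 1). Plod1 lies on chromosome 4 from 147909753 to 147936767 on the minus strand and Plod2 on chromosome 9 from 92542223 to 92608428 on the plus strand.

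The libraries of the strains were fully apart for 5 of the 8 family genes, 3 with 129 higher and 2 with B6 higher, where 60.1% of all genes tested were apart. In the fit over all genes, 1 of the 8, Loxl2, passed an adjusted p under 0.05, where 2.86% of all genes tested passed. The members were listed with this contrast known, so nothing is read from either count. The median log2 fold change of the 8 was 0.45.

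Levels of different genes were compared after dividing by exon length, as CPM per kb of exon. In B6 the order of the mean levels was Lox (71.8 ± 37.2 CPM per kb), Loxl2 (27.98 ± 20.3), Plod2 (27.6 ± 14.1), Plod1 (20.96 ± 2.89), Plod3 (13.2 ± 1.78), Loxl1 (6.97 ± 0.487), Loxl3 (3.57 ± 1.16) and Loxl4 (0.632 ± 0.212; SD, n = 2 for each). Of these neighbours, Loxl2 and Plod2, and Plod2 and Plod1, lay within the range of each other's libraries, and the others did not overlap. In 129 the order was Lox (66.5 ± 58.5), Loxl1 (31.6 ± 24.4), Plod3 (28.8 ± 10.5), Plod2 (19.4 ± 1.63), Plod1 (17.3 ± 1.52), Loxl3 (7.21 ± 5.17), Loxl4 (3.79 ± 3.17) and Loxl2 (0.292 ± 0.0164). Lox, Loxl1 and Plod3 overlapped there in turn, as did Plod2 and Plod1 and also Loxl3 and Loxl4. By the mean, Loxl2 came after Lox in B6 and last in 129. In B6 replicate 2 alone its 13.6 CPM per kb was below Lox, Plod1 and Plod2 (45.5, 18.9 and 17.6).

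The makeup of the oxidase family changed with strain more than its share of Lox did. Lox made up 64.8% and 64.4% of the summed oxidase level per kb in the B6 libraries and 62.0% and 55.9% in the 129 libraries. Loxl2 made up 28.0% and 19.3% in B6 and 0.175% and 0.625% in 129. Loxl1 held 4.83% and 9.39% in B6 and 28.1% and 32.1% in 129, so it took the place after Lox that Loxl2 held in B6. The summed level of the 5 oxidases was higher in replicate 1 of both strains, at 151 and 70.5 CPM per kb in B6 and 174 and 44.9 CPM per kb in 129. Among the hydroxylases Plod3 held 19.2% and 24.6% in B6 and 49.7% and 36.7% in 129, and Plod2 50.1% and 36.3% in B6 and 25.1% and 35.4% in 129.

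**Figure D2:**
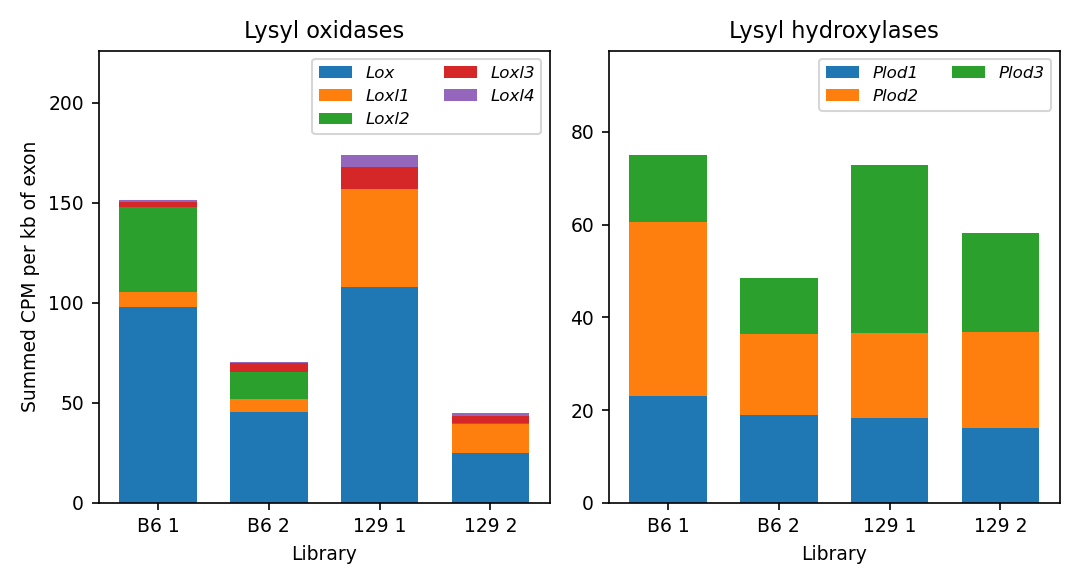
Stacked bars of CPM per kb of exon for each library, lysyl oxidases on the left and lysyl hydroxylases on the right (the vertical scales differ). In the B6 libraries Loxl2 is the next largest oxidase after Lox (28.0% and 19.3%), and in the 129 libraries Loxl1 is (28.1% and 32.1%).

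Libraries of the same strain differed for several members, and replicate 1 was the higher library for 7 of 8 members in B6 (all but Loxl3) and for 7 of 8 in 129 (all but Plod2). The size of the difference varied with strain. In 129, replicate 1 was above replicate 2 for all 5 oxidases, by 3.06- to 4.296-fold except for Loxl2 at 1.08-fold. Plod3 was 1.70-fold, Plod1 1.13-fold and Plod2 0.888-fold in the same ratio. In B6, replicate 1 exceeded replicate 2 by 3.11-fold for Loxl2, 2.16-fold for Lox and 2.14-fold for Plod2, by 1.62-fold for Loxl4 and by 1.10- to 1.22-fold for Loxl1, Plod1 and Plod3. Loxl3 was lower in B6 replicate 1, at 0.627 of replicate 2.

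Markers of other cell types moved between the same libraries. The 10 fibroblast markers summed to 605 and 617 CPM in B6 and to 1743 and 926 CPM in 129, and the first library exceeded the second by a median of 0.054 (log2) in B6 and 1.14 in 129. Dcn, a fibroblast proteoglycan gene, was at 134 ± 21.1 and 385 ± 216 CPM, and Fbln1, a matrix protein gene, at 168 ± 11.9 and 319 ± 28.3 CPM (SD, n = 2). The list was mixed, and the strains were apart for 8 of the 10 genes, where 60.1% of all genes tested were apart. Of the 8, 5 had 129 higher and 3 had B6 higher. The last were Fap (10.4-fold by the means), Thy1 (2.43-fold) and Lum (1.84-fold), none of which passed, whereas Pdgfra and Fbln1 rose in 129. Fbln1 passed narrowly (edgeR adjusted p = 0.049). It also passed with DESeq2, but not with limma-voom, a replicate block or the other filters on low counts. The 5 peritubular muscle markers summed to 80.5 and 23.4 CPM in B6 and 92.2 and 39.9 CPM in 129. Acta2, smooth muscle actin, was at 39.9 and 10.5 CPM in the B6 pair and at 54.9 and 11.3 CPM in the 129 pair, high in replicate 1 of both strains as Lox was. Others of the list did not share that pattern. Des, desmin, was at 2.73 and 2.87 CPM in the B6 pair and 28.9 and 21.3 CPM in the 129 pair (log2 fold change 3.16, SE 0.40, edgeR adjusted p = 0.030), Myh11 was lower in 129 replicate 1 than in 129 replicate 2 (2.99 against 3.89 CPM), and Tagln was 5.94-fold higher in B6 by the means without passing. The part of these cell types in the family values was not tested.

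Markers of 4 other cell types were summed in the same way. The 9 Sertoli cell markers summed to 33.8 to 47.0 CPM in B6 and 151 to 287 CPM in 129. In 129 the highest were Clu, a secreted chaperone gene, at 142 ± 72.6 CPM and Rhox5, a homeobox gene, at 41.97 ± 31.9 CPM, against 6.96 ± 4.51 and 0.517 ± 0.390 CPM in B6 (SD, n = 2). Clu and Rhox5 made up most of the sum in both 129 libraries. The strains were apart for 8 of the 9 genes, 7 with 129 higher and 1 with B6 higher (60.1% of all genes tested were apart). The last was Inhbb, at 27.1 and 9.85 CPM in B6 and 2.61 and 2.51 CPM in 129, without passing. The 6 endothelial markers summed to 10.0 to 15.4 CPM in B6 and 43.1 to 101 CPM in 129, with Cdh5, vascular cadherin, at 1.67 ± 1.34 and 57.4 ± 43.1 CPM and Pecam1 at 5.79 ± 2.73 and 7.10 ± 1.63 CPM. Cdh5 alone, at 87.9 and 27.0 CPM, made up most of the endothelial sum in both 129 libraries. The 6 macrophage markers, with Lyz2 and Cd68 on top, summed to 10.2 to 26.9 CPM over the 4 libraries. The 6 Leydig cell markers summed to 4.20 to 9.04 CPM, most of it Star, a cholesterol transport gene. Among them the receptor gene Lhcgr had a count in 1 of 4 libraries and the steroidogenic enzyme gene Cyp11a1 was under 1 CPM in all 4.

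Set against the summed fibroblast markers of the same library, the members kept different patterns. Per 1000 CPM of those markers, Loxl2 was at 379 and 119 CPM in the B6 libraries and at 0.942 and 1.64 CPM in the 129 libraries. Loxl1 was at 39.9 and 35.4 CPM in the B6 libraries and 92.4 and 51.3 CPM in the 129 libraries, with the strains still apart, and Loxl4 at 5.45 and 3.29 against 14.6 and 7.06 CPM. Plod3 was at 108 and 87.2 CPM in the B6 libraries and 93.8 and 104 CPM in the 129 libraries, where the strains overlapped. Lox, at 775 and 352 CPM in the B6 libraries and 296 and 129.5 CPM in the 129 libraries, no longer overlapped. Plod2, at 335 and 154 against 56.6 and 120 CPM, no longer overlapped either. Plod1, at 258 and 207 against 71.3 and 118 CPM, stayed apart with B6 higher. Loxl3 overlapped, at 20.9 and 32.7 against 28.7 and 17.7 CPM.

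**Figure D3:**
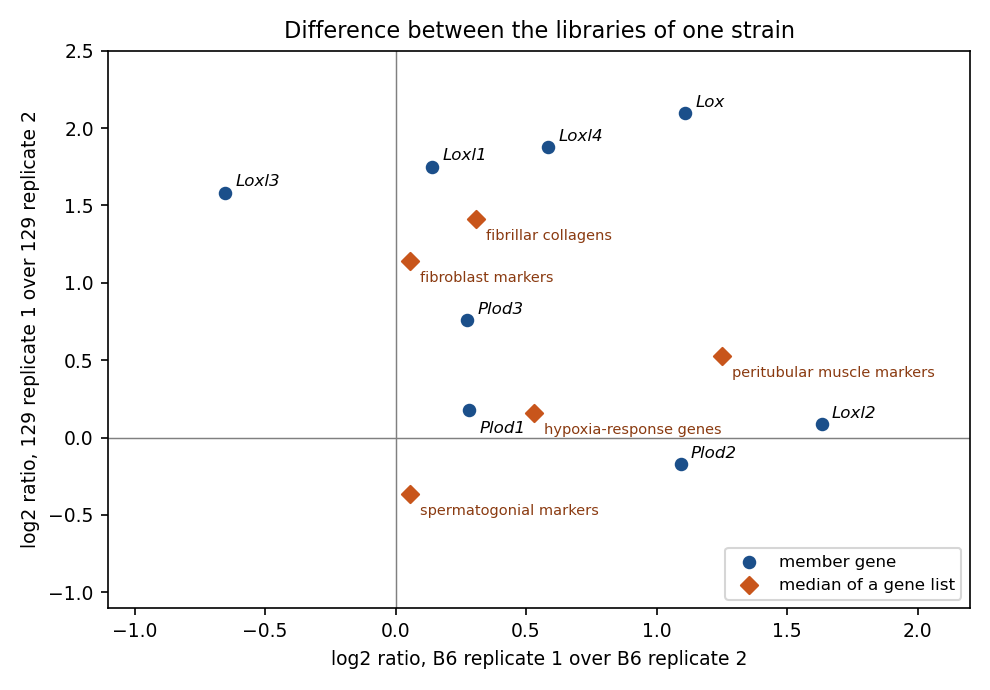
Log2 ratio of replicate 1 to replicate 2 in B6 (horizontal) and in 129 (vertical), computed on CPM + 0.5, for the 8 family genes (circles) and for the medians of 5 gene lists (diamonds). Lox, Loxl1, Loxl3 and Loxl4 sit high on the 129 axis with the fibrillar collagens and the fibroblast markers, whereas Loxl2, Plod1 and Plod2 sit near 0 on that axis. Among the family genes, Loxl2, Lox and Plod2 lie farthest right on the B6 axis, where the median of the peritubular muscle markers is 1.25.

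The genes with the pattern most like Loxl2 over the 4 libraries were Timp3, Agtr2, Lemd1, Kcne4 and Aspn, in that order. Likeness was the Euclidean distance between profiles of log2 (CPM + 0.5), each centred on its own mean, over 4 libraries. Only tested genes were searched, leaving out those with predicted, Riken or accession-style names. Timp3, an inhibitor of metalloproteinases, was nearest at a distance of 1.47, with 138 and 62.7 CPM in B6 and 4.59 and 2.04 CPM in 129. Aspn, a small leucine-rich proteoglycan gene, was the fifth at 2.08, reading 20.05 and 7.18 CPM in the B6 pair but 0.580 and 0.0948 CPM in the 129 pair. The other family members had closer neighbours. Those of Lox were Col4a1, a basement membrane collagen gene, at 0.34 and Rnd3 at 0.38. For Loxl1 they were Mmp23 at 0.052 and Vegfd at 0.078, and for Loxl4 Ssc5d at 0.086 and Ephx1 at 0.12. For Loxl3 they were Abcb1a at 0.15 and Klra2 at 0.18, and for Plod1 Faf2 at 0.053 and Mab21l3 at 0.056. For Plod2 they were Celf1 at 0.066 and Rrn3 at 0.099, and for Plod3 Coq10a at 0.098 and Zfp764 at 0.101. These distances are descriptions over 4 libraries.

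Genes beside Loxl2 on chromosome 14 had log2 fold changes from -0.34 to 1.32, against -6.58 for Loxl2. Within 250 kb of the gene, 4 of 13 genes in the table had enough counts to be tested, all beyond its end, and 0 of 4 passed the edgeR test (quasi-likelihood, Benjamini-Hochberg adjusted). DESeq2 called 1 of the 4 (15.3% of all genes) and the unadjusted edgeR p was under 0.05 for 2 (28.1% of all genes). R3hcc1, which lies 1.47 kb past the end of Loxl2, was at 21.7 ± 2.10 CPM in the B6 libraries and 33.96 ± 0.820 CPM in the 129 libraries (SD, n = 2; log2 fold change 0.64, SE 0.27). Chmp7, an ESCRT complex gene, had a log2 fold change of -0.34 (SE 0.21), Tnfrsf10b, a death receptor gene, 0.55 (SE 0.23) and Rhobtb2 1.32 (SE 0.29, edgeR adjusted p = 0.055).

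The other genes of the collagen and elastin pathway mostly did not pass the test between strains. Of 85 tested genes in 8 lists, which hold the partner enzymes, substrates, copper and ascorbate supply and upstream signals, 2 rose and 2 fell in 129 by the same edgeR test, adjusted over all genes. That is 2 of 85 in each direction, where 1.84% of all genes tested were higher and 1.02% lower. The median log2 fold change of the 85 was 0.080. DESeq2 called 28 of the 85, where it called 15.3% of all genes, and 32 had an unadjusted edgeR p under 0.05, where 28.1% of all genes did. No pathway gene passed in edgeR fits that dropped either B6 library or 129 replicate 1. At an unadjusted p under 0.05 these fits had 27 of 86 genes without B6 replicate 1 (19.5% of all genes), 32 of 87 without B6 replicate 2 (24.4%) and 36 of 88 without 129 replicate 1 (13.2%). The fit that dropped 129 replicate 2 called 13 of 88, 12 higher and 1 lower, where 4.92% of all genes passed, and Smad3 was not among the 13.

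Substrates went in both directions. Among 11 fibrillar collagen genes 1 rose, 0 fell and 10 did not pass, with a list median of -0.32. An unadjusted edgeR p was under 0.05 for 5 of them, and DESeq2 called 5. The strains were apart for 8 of the 11 (60.1% of all genes tested). Of these, B6 was higher for 6 and 129 for 2. In B6 against 129, Col1a1 was at 1113 and 664 against 465 and 190 CPM. Col1a2 was at 835 and 675 against 571 and 161 CPM, and Col3a1 at 1357 and 641 against 423 and 126 CPM, without passing. Col2a1, the cartilage collagen gene, stood at 12.01 and 10.5 CPM in the B6 libraries, and both 129 libraries, at 58.5 and 81.8 CPM, were far above (log2 fold change 2.63, SE 0.29, edgeR adjusted p = 0.029). Among 12 elastic fibre genes 1 fell and 11 did not pass (median 0.61, 6 at an unadjusted p under 0.05 and 6 called by DESeq2). Mfap4, a microfibril protein gene, dropped to 0.580 and 0.759 CPM in 129 from B6 levels of 10.04 and 13.6 CPM (log2 fold change -4.12, SE 0.55, edgeR adjusted p = 0.030). Mfap4 overlaps Mapk7 on the opposite strand. Of 5 tested basement membrane collagen genes none passed by edgeR, DESeq2 called 0 and 0 had an unadjusted p under 0.05 (median -0.36). Col4a1 was at 184 ± 76.4 and 150 ± 114 CPM and Col4a2 at 132 ± 34.2 and 103 ± 82.2 CPM in B6 and 129 (SD, n = 2).

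Partner enzymes and cofactor genes had no calls in edgeR. None of 16 genes of prolyl hydroxylation, glycosylation and procollagen folding passed (median 0.40, with 2 at an unadjusted p under 0.05 and 1 called by DESeq2). P4hb, the subunit shared by prolyl hydroxylases, was at 1036 ± 12.6 CPM in the B6 libraries and 901 ± 39.9 CPM in the 129 libraries, and Ppib, a collagen-folding isomerase gene, at 233 ± 49.7 and 267 ± 13.4 CPM (SD, n = 2). Of 8 procollagen processing genes none passed (median 0.020, 3 at an unadjusted p under 0.05 and 2 called by DESeq2). In that list Pcolce, an enhancer of procollagen cleavage, was at 78.9 and 55.6 CPM in the B6 libraries and 528 and 168 CPM in the 129 libraries, and Bmp1, the protease that cleaves procollagen and Lox, at 48.4 and 46.8 and at 185 and 76.4 CPM. Both had the 129 libraries above the B6 libraries without passing (edgeR adjusted p = 0.060 for Pcolce and 0.084 for Bmp1). None of 8 copper, ascorbate and matrix partner genes passed (median -0.53, 2 at an unadjusted p under 0.05 and 2 called by DESeq2). Fn1, fibronectin, was at 1524 ± 354 and 2867 ± 1698 CPM, and the ascorbate carrier gene Slc23a2 at 250.0 ± 23.6 and 229 ± 39.7 CPM.

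Upstream signals were looked at through hypoxia-response genes and TGF-beta genes, since both pathways are known to induce lysyl oxidases and Plod2. Of 14 tested hypoxia-response genes none passed by edgeR (median -0.56, 7 at an unadjusted p under 0.05 and 6 called by DESeq2). Replicate 1 exceeded replicate 2 by a median of 0.53 (log2) in B6 and 0.16 in 129. Ldha, a glycolytic enzyme gene, was at 321 and 139.95 CPM in the B6 libraries and 154 and 97.1 CPM in the 129 libraries, high in B6 replicate 1 as Plod2 and Loxl2 were. Kdm3a, a histone demethylase gene, was at 369.5 and 234 CPM in the B6 libraries and 144 and 203 CPM in the 129 libraries. Whether hypoxia signalling had a part in the family values was not tested. Among 11 TGF-beta and related genes, 1 rose and 1 fell (median 0.72, 7 at an unadjusted p under 0.05 and 6 called by DESeq2). The ligand gene Tgfb1 rose in 129, with 67.0 and 68.6 CPM there against B6 levels of 13.3 and 20.05 CPM (log2 fold change 2.03, SE 0.29, edgeR adjusted p = 0.033). Smad3, a transcription factor of the pathway, fell from 157 and 143 CPM to 66.4 and 54.9 CPM (log2 fold change -1.31, SE 0.20, edgeR adjusted p = 0.035).

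**Figure D4:**
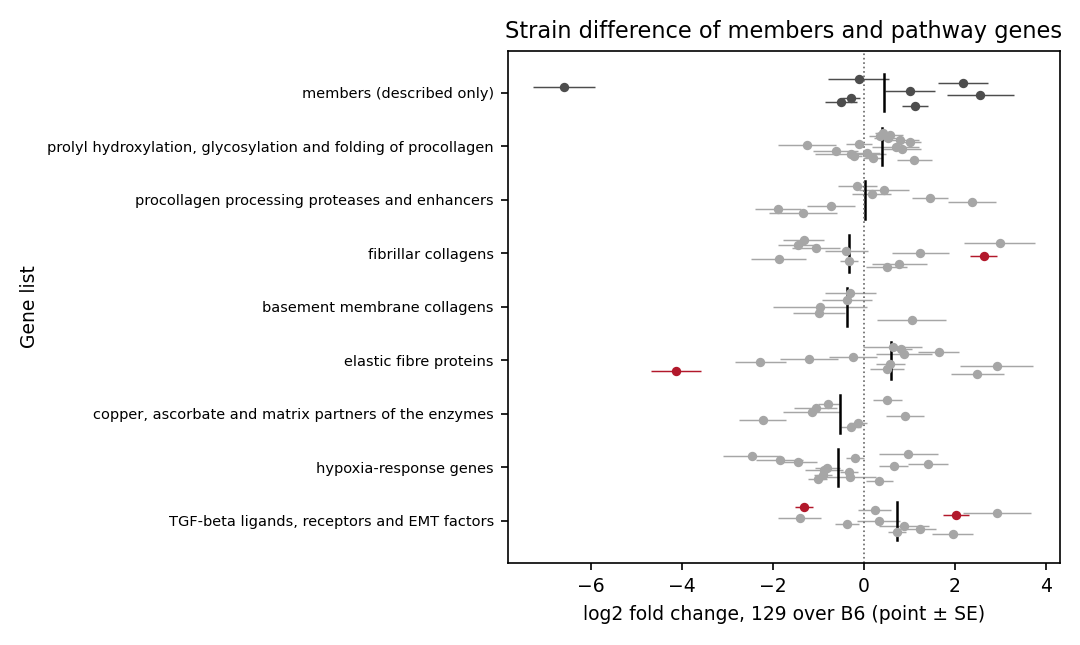
Log2 fold change of 129 over B6 with its SE for each tested gene, by list, with a black tick at the list median. Dark grey points are the 8 family genes, shown without a test, red points are pathway genes that passed (Col2a1, Mfap4, Tgfb1 and Smad3) and light grey points did not pass, and Loxl2 at -6.58 lies farthest left.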

How the data were processed

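RNA of 4 GS cell libraries (2 B6, 2 strain 129) was sequenced as single reads of 76 bases from a stranded mRNA kit, per the labels' protocols. The authors deposited whole-number read counts per gene on mm10. The submitters' processing notes name HISAT2 2.2.1, HTSeq 0.13.5, cutadapt 3.4, bcl2fastq 2.20 and DESeq2 1.30.1. No source used here gives the annotation release or the strand setting. From the counts, CPM with TMM scaling and log2 fold changes were computed with edgeR 4.0.16 in R 4.3.3 (filterByExpr, quasi-likelihood fit with legacy = FALSE, Benjamini-Hochberg adjustment over all genes tested, threshold 0.05). The legacy choice and the members and gene lists were made with earlier results of these data known. With 2 libraries a strain, an exact two-sided permutation test of one value cannot go below p = 0.333, so none is given. Positions, exon lengths and sequences came from GENCODE M21 on GRCm38, which matched 32158 of 32285 gene IDs. Named were all members, the called genes of each pathway list up to 3 per direction (where there were none, the 2 of highest mean CPM), the 2 most abundant of each cell marker list, and the nearest profiles (5 for Loxl2, 2 for each other member). Other genes were named after their values were seen (Lhcgr, Myh11, Tagln, Fap, Thy1, Lum, Pdgfra, Etv5, Inhbb, Col1a1, Col1a2, Col3a1), and genes flanking Loxl2 by position. Alternatives were other scaling, filters, DESeq2 1.42.0, limma-voom (limma 3.58.1), a replicate block and leaving out each library.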

Additional observations from a re-analysis of the deposited data

How the results depend on the processing

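The count of genes passing between strains depended on the processing. It was 457 with edgeR's quasi-likelihood test, 1052 with library totals in place of TMM, 260 with no filter, 301 with a filter of 1 CPM in 2 libraries, 2455 with DESeq2, 263 with limma-voom and 844 with a replicate block. Leaving out 1 library gave 0 to 827 calls, where the lone library of a strain is assumed to vary like those of the other strain. The 0 was without B6 replicate 1, with 3251 genes at an unadjusted p under 0.05. Of the pathway genes 4 passed, against 10 with library totals, 28 with DESeq2, 15 with a replicate block and 0 to 13 without 1 library. The labels do not say whether libraries of the same replicate number are paired. Over the 16005 genes tested, the deviations of B6 replicate 1 and 129 replicate 1 from their strain means had a correlation of -0.019. A single correlation over all genes cannot settle this, since some genes could still share an effect of replicate number. The log2 fold change of Lox ran from -1.51 to 0.59 without 1 library (0.54 without B6 replicate 1 and 0.59 without 129 replicate 2), and that of Plod2 from -0.99 to 0.14 (without B6 replicate 1). The legacy form of edgeR's fit, added after seeing the data, called 406 genes. The cause of these changes was not tested.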

Other observations

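Set against the summed CPM of the 11 fibrillar collagen genes, which are substrates of these enzymes, the family again differed between members. Per 1000 CPM of fibrillar collagens, Loxl2 was at 57.0 and 28.6 CPM in B6 and at 0.645 and 1.52 CPM in 129. Loxl1 was at 6.00 and 8.48 CPM in B6 and 63.3 and 47.5 CPM in 129, and Plod3 at 16.2 and 20.9 CPM in B6 and 64.2 and 96.4 CPM in 129. Lox was at 117 and 84.4 CPM in B6 and 202 and 119.9 CPM in 129, so on this scale its 129 libraries were both above its B6 libraries. The collagen sums themselves were 4020 and 2574 CPM in B6 and 2547 and 1000 CPM in 129. The CPM of Lox overlapped between the strains, and per CPM of fibroblast markers its B6 libraries were both above its 129 libraries. Per CPM of fibrillar collagens, Plod1 and Plod2 overlapped between the strains.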
